A study of Mus musculus with 6 samples.

Results

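The genes of the eukaryotic translation initiation factors (eIFs) were described in day 4 embryoid bodies (EBs) of 2 mouse embryonic stem cell lines. Members were all listed genes whose symbol begins with Eif and a digit from 1 to 6, apart from the X-linked and Y-linked copies of the gene for the gamma subunit of eIF2. This rule gave 55 of the 15266 listed genes. Of the 55, 4 are Argonaute genes, which the table lists under their older symbols (*Eif2c1* to *Eif2c4*) and which act in small RNA silencing rather than in initiation.

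Both lines were made from W9.5 embryonic stem cells with CRISPR-Cas9 and were differentiated in serum-containing medium, with LIF withdrawn, until day 4. The EVX1-Δfs line is 1 clone (clone 14) with small frameshift edits on both alleles of *Evx1*, within the homeodomain sequence of its exon 2. The Del#3 line carries a deletion of about 2.6 kb that takes away the promoters of *Evx1* and of its antisense long non-coding RNA *Evx1as*. By design, functional EVX1 is thus missing in both groups, and the Del#3 line also loses *Evx1as*. No library of unedited cells was analysed here. The question was which genes differ when *Evx1as* is lost on top of EVX1. There were 3 replicates of each line. The 2 lines of each replicate number were taken as 1 of the side-by-side differentiations, each on another day, that the series describes. A replicate number was thus taken to name a day, although deviations of the 2 replicate 3 libraries from their lines' means correlated at -0.05. Below, day 1, day 2 and day 3 stand for the days on which replicates 1, 2 and 3 were set up, and values of the 3 libraries of a line are given in this order.

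Translation initiation brings the small ribosomal subunit, the initiator tRNA and the mRNA together. eIF1 and eIF1A keep the small subunit open for scanning, eIF2 carries the initiator tRNA, eIF2B recharges eIF2 with GTP, eIF3 is the scaffold on the small subunit, and eIF4F binds the cap and unwinds the leader of the mRNA. eIF5 and eIF5B act at start codon recognition and subunit joining. Embryonic stem cells are known for a low rate of protein synthesis that rises as they differentiate.

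The depth, counted as reads on the listed genes, was 9024579 to 15699124 in the EVX1-Δfs libraries and 9729013 to 12231851 in those of Del#3. *Evx1* had 2582 to 4023 reads in the EVX1-Δfs libraries and 28 to 48 in the Del#3 libraries, and the transcript listed as 5730457N03Rik (*Evx1as*) had 571 to 879 and 21 to 30, which checks the Del#3 label. The frameshift leaves the *Evx1* transcript in place, so its level checks nothing in the EVX1-Δfs libraries. Markers of pluripotent, streak and endoderm cells were present in both lines, with summed normalized counts of the 6 streak and mesoderm markers between 8446 and 10122 in EVX1-Δfs and between 6902 and 9402 in Del#3. The neural markers *Sox1* and *Pax6* stayed under 20 normalized counts in every library. So did *Afp*, 1 of 4 visceral endoderm markers, whose sum was 4958 to 7969 in EVX1-Δfs and 5737 to 8151 in Del#3. The 3 blood markers summed to 559 to 1155 in EVX1-Δfs and 679 to 1276 in Del#3. EBs hold several cell types, so fewer cells of a type and less RNA per cell cannot be told apart in these values.

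All 55 members were measured and passed the low-count filter. Levels between genes were compared as RPKM (reads per kilobase of exon, scaled to the library's reads), averaged over the 6 libraries. Exon length counted every annotated exon base of a gene, so levels between genes depend on the annotation. Levels spanned from 0.141 RPKM for *Eif2c3* to 729 RPKM for *Eif5a*, with a median of 34.9. *Eif5a*, the hypusine-carrying factor that helps ribosomes through difficult peptide bonds, stood at 703 ± 94.0 in EVX1-Δfs and 756 ± 92.3 in Del#3 (SD, n = 3). It was followed by *Eif4a1*, the RNA helicase of eIF4F, at 554 ± 114 in EVX1-Δfs and 476 ± 127 in Del#3, and by *Eif3k*, a peripheral eIF3 subunit, at 494 ± 134 in EVX1-Δfs and 478 ± 146 in Del#3. Within a library, *Eif5a* was above *Eif4a1* in 6 of 6 libraries and above *Eif3k* in 5 of 6, while *Eif4a1* was above *Eif3k* in 2 of 6, so the order of the latter pair was not settled. *Eif4ebp1*, the repressor that competes with eIF4G for eIF4E, was also among the most abundant, with 407 RPKM. At the low end were *Eif2c3*, *Eif2c4* with 0.425 RPKM, the interferon-induced kinase gene *Eif2ak2* (PKR) with 1.2 RPKM and *Eif4e3*, a cap-binding relative of eIF4E, with 1.66 RPKM.

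**Figure D1:**
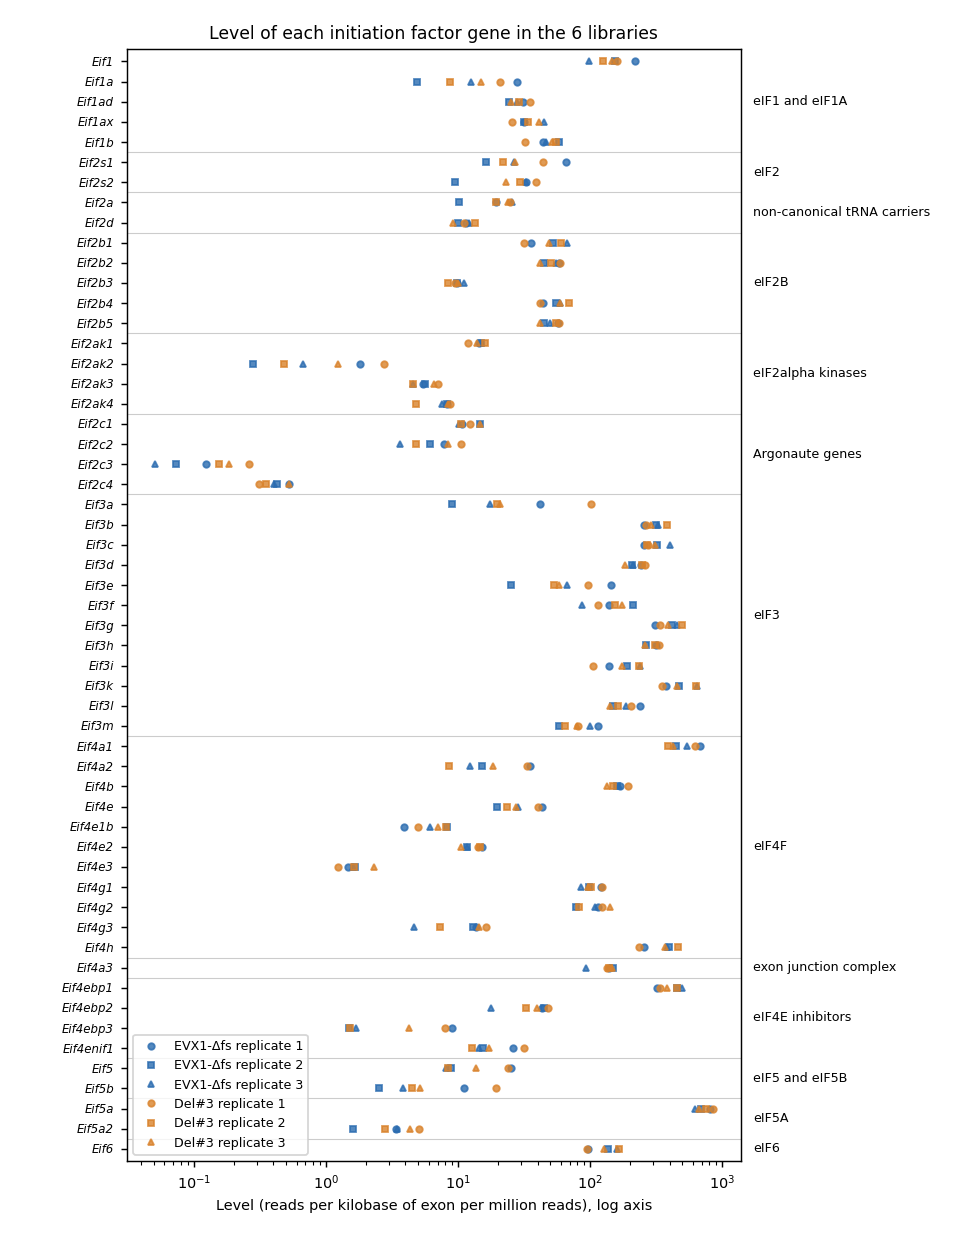
Level of each of the 55 genes (RPKM, log axis) in the 6 libraries, by complex. Colour gives the line and marker shape the replicate. Genes range from 0.141 RPKM for *Eif2c3* to 729 RPKM for *Eif5a*. Each Del#3 point of *Eif2c3* lies to the right of each EVX1-Δfs point.

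Levels within a complex were not equal. Among the 12 listed eIF3 subunits, *Eif3k*, *Eif3g*, *Eif3b*, *Eif3c* and *Eif3h* lay between 300.5 and 486 RPKM, while *Eif3a*, the largest scaffold subunit, averaged 34.9 RPKM with a range of 8.93 to 101, and *Eif3e* averaged 74.0 RPKM with a range of 25.0 to 145. In eIF2B, the catalytic subunit gene *Eif2b5* had 51.1 RPKM and its partner *Eif2b3* 9.77, while *Eif2b1*, *Eif2b2* and *Eif2b4* of the regulatory core had 49.2, 51.6 and 54.7. *Eif2b3* was below the other 4 in all 6 libraries, but its exon length of 6553 bases exceeds their 1885 to 3209. Its mean normalized counts were 721 in EVX1-Δfs and 639 in Del#3, beside 1068 and 995 for *Eif2b2*. The subunits of eIF2 measured here, *Eif2s1* (alpha, the one phosphorylated under stress) and *Eif2s2* (beta), averaged 33.5 and 27.7 RPKM, and their libraries overlapped. In mean normalized counts *Eif2s2* was the higher, with 1823 in EVX1-Δfs and 2142 in Del#3, beside 1307 and 1085 for *Eif2s1*.

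Of the 4 kinases that phosphorylate eIF2 alpha, the heme-regulated *Eif2ak1* was highest at 14.3 RPKM, followed by the amino acid sensor *Eif2ak4* (GCN2) at 7.67, the endoplasmic reticulum sensor *Eif2ak3* (PERK) at 5.62 and *Eif2ak2* at 1.2. Library ranges of *Eif2ak4* and *Eif2ak3* overlapped (4.82 to 8.74 and 4.54 to 7.03), but *Eif2ak4* was above *Eif2ak3* in 6 of 6 libraries, while the ranges of *Eif2ak1* (11.9 to 16.0) and *Eif2ak2* (0.282 to 2.73) stood apart. Of the factors that act at the start codon, *Eif1* had 150.2 RPKM and *Eif1a*, the lowest of its group, 15.0, and *Eif5* and *Eif5b* had 14.7 and 7.74. *Eif2a* and *Eif2d*, alternative carriers of tRNA to the ribosome, had 20.5 and 11.2 RPKM, and the single-gene factors *Eif4a3* and *Eif6* 134 and 129.8. The lowest eIF4E inhibitor was *Eif4ebp3* at 4.34 RPKM and the minor eIF5A gene *Eif5a2* had 3.45. Among the Argonaute genes, *Eif2c1* (12.1 RPKM) and *Eif2c2* (6.88) were well above *Eif2c3* and *Eif2c4*.

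Paralog use was measured as the share of reads per kilobase among the paralogs named in each case. *Eif4a1* made up 96.5% ± 1.37 in EVX1-Δfs and 96.2% ± 1.48 in Del#3 (SD, n = 3) of the *Eif4a1* and *Eif4a2* helicase pair. *Eif5a* made up 99.6% ± 0.162 in EVX1-Δfs and 99.5% ± 0.142 in Del#3 (SD, n = 3) of *Eif5a* and *Eif5a2*. *Eif4g1* made up 91% ± 3.35 in EVX1-Δfs and 89.6% ± 3.31 in Del#3 (SD, n = 3) of *Eif4g1* and *Eif4g3*, the full-length scaffolds. *Eif4ebp1* made up 91.9% ± 4.24 in EVX1-Δfs and 90.4% ± 2.96 in Del#3 (SD, n = 3) of *Eif4ebp1* and *Eif4ebp2*. The major paralog was thus the same in all 6 libraries for each of these pairs.

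None of the 7 shares passed the two-sided exact permutation test between the lines, in which 3 against 3 libraries cannot go below p = 0.1. The smallest p was 0.4, for *Eif5a*, and adjusted p over the 7 shares was 0.933 or more. Within pairs the *Eif5a* share was lower in Del#3 on each day, with differences of -0.173, -0.144 and -0.0873 percentage points, and the *Eif4g2* share higher on each, with differences of 0.897, 1.95 and 0.69 points. Both had an exact permutation p of 0.25 within pairs, the smallest that 3 pairs allow. The *Eif4e* share of *Eif4e*, *Eif4e2* and *Eif4e3* was 72.1%, 59.4% and 67.9% in EVX1-Δfs and 72.3%, 59.1% and 68% in Del#3, in replicate order. On each day the 2 lines were at most 0.306 percentage points apart, while the day means ranged over 12.9 points. This share leaves out *Eif4e1b*. With it, a choice made after seeing the data, the *Eif4e* share was 67.7%, 47.5% and 59.2% in EVX1-Δfs and 66.4%, 49.1% and 57.9% in Del#3. These shares depend on exon length, 2882 bases for *Eif4e* and 7497 for *Eif4e2*. In reads not divided by length, *Eif4e* exceeded *Eif4e2* on day 1 (1956 against 1797 in EVX1-Δfs and 1418 against 1297 in Del#3). *Eif4e2* exceeded *Eif4e* on day 2 (791 against 509 and 1073 against 663) and on day 3 (844 against 779 and 775 against 772). The share of *Eif4g2* (DAP5, which lacks the eIF4E site) among the 3 *Eif4g* genes was 45.8%, 41% and 55% in EVX1-Δfs and 46.7%, 42.9% and 55.7% in Del#3. Here the gap on a day was at most 1.95 points and the day means ranged over 13.4 points. The *Eif1* share of *Eif1* and *Eif1b* was 83.3%, 72.4% and 68% in EVX1-Δfs and 83.3%, 69.4% and 74% in Del#3, with a gap of up to 5.96 points on a day and day means that ranged over 12.4 points.

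**Figure D2:**
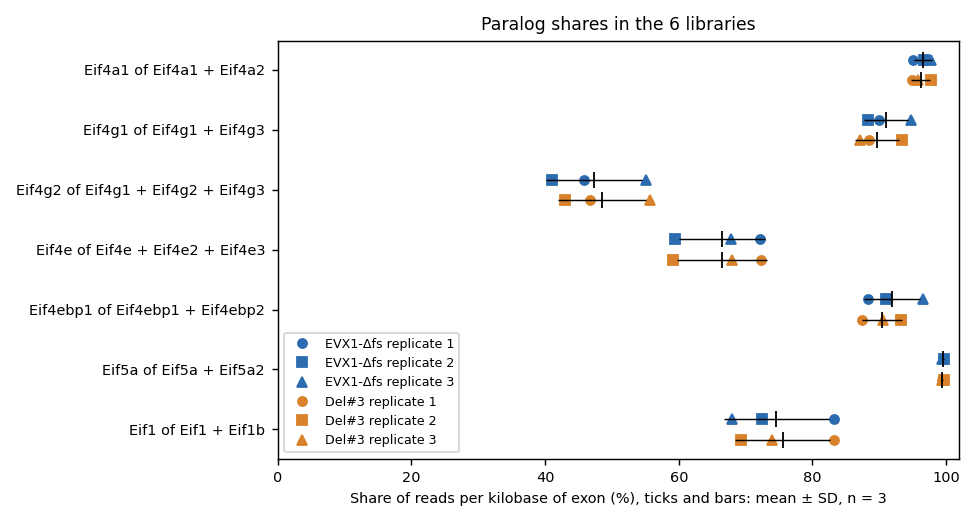
Share of the first-named gene in the reads per kilobase of the paralogs listed with it (%), in each library, with the mean ± SD of each line (n = 3). The lines overlap in all 7 shares, and for *Eif4e* the marker of each replicate falls at nearly the same place in both lines, between 59.1% and 72.3%.

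Between the lines, no member was called. limma, fitted over 12891 genes, called 0 of 55 members at an adjusted p under 0.05, beside 2 of all genes tested (0.0155%). At an unadjusted p under 0.05, 1 member was higher in Del#3 (0.83% of all genes) and 0 were lower (0.202%). When the day entered limma as a block, it called 0 members (0.0233% of all genes), with 5 members higher in Del#3 at an unadjusted p under 0.05 (3.64% of all genes) and 0 lower (0.985%). edgeR's quasi-likelihood test on the recovered reads called 0 members without the block (0.0155% of all genes) and 0 with it (0.0233%), and DESeq2 called 0 without the block (0.0233%) and 0 with it (0.14%).

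Of the 55 log2 fold changes (Del#3 over EVX1-Δfs), 30 were above 0 and 25 below, with a median of 0.03 beside 0.00 over all genes tested. The 95% confidence interval lay within a 2-fold change either way for 38 of 55 members (61.1% of all genes) and, with the replicate block, for 46 of 55 (76.2%). For the other members the interval reached a 2-fold difference. The summed level of all members was 17579.8, 15577 and 16854 RPM (reads scaled to the library's total on listed genes) in EVX1-Δfs, and 17618, 16419.7 and 15919 RPM in Del#3. The means were 16670.0 ± 1014 and 16652 ± 873 (SD, n = 3 per line), or 1.67% of reads in both lines, and the two-sided exact permutation test gave p = 1.00.

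**Figure D3:**
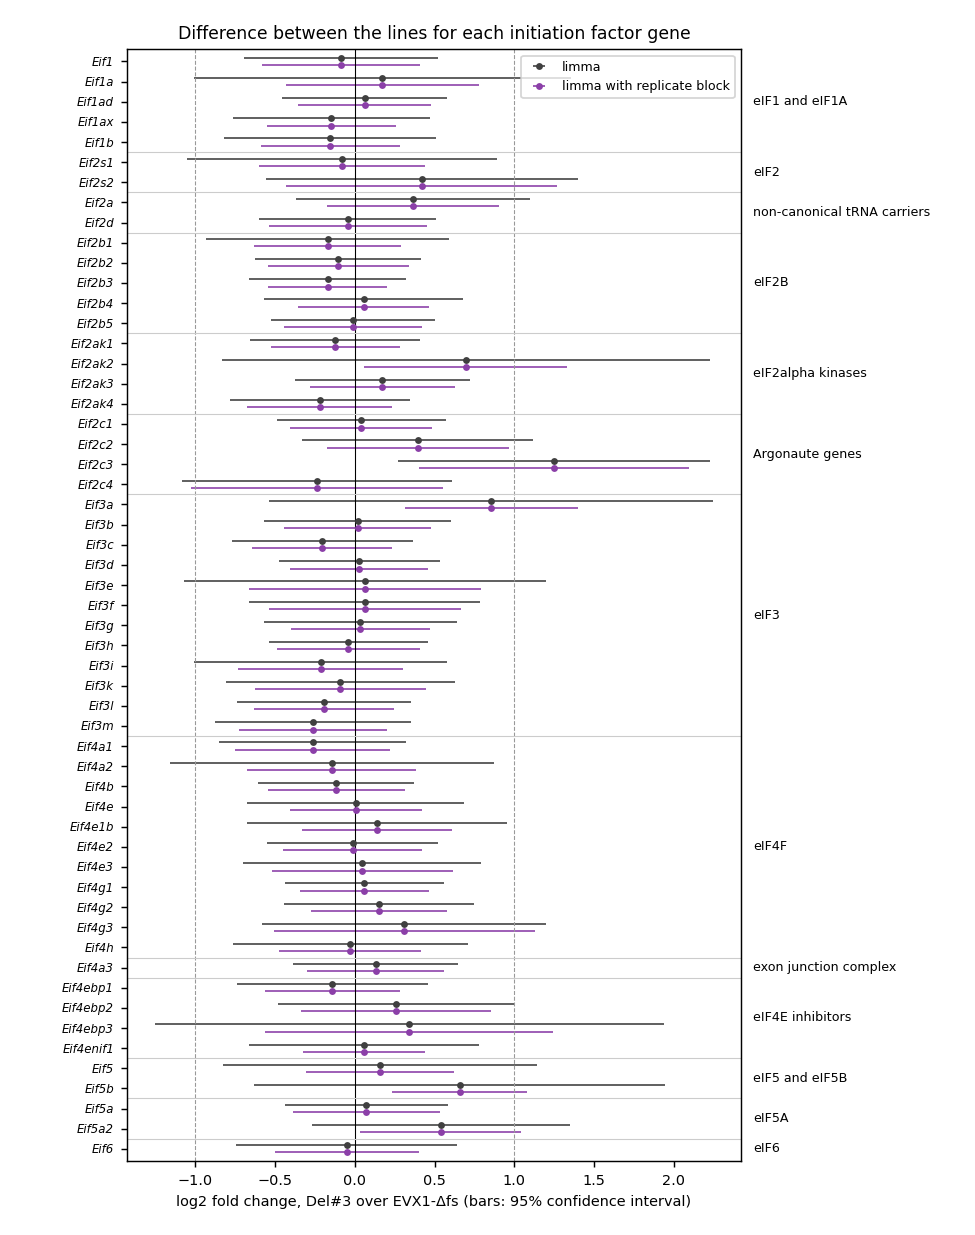
log2 fold change of each gene between the lines with its 95% confidence interval, by limma without and with the replicate block. Dashed lines mark a 2-fold change. Without the block *Eif2c3* alone has an interval that leaves out 0, from 0.27 to 2.22.

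The member with the smallest p was *Eif2c3*, which encodes Argonaute 3. Its normalized counts were 21.1, 12.9 and 9.45 in the EVX1-Δfs libraries and 42.2, 29.0 and 32.0 in those of Del#3. All Del#3 libraries lay above all EVX1-Δfs libraries, which held for 1 of 55 members (1.71% of all genes), and the reverse held for 0 members (1.8%). The log2 fold change was 1.25 ± 0.44 (SE, n = 3 per line), with an unadjusted limma p of 0.0173 and an adjusted p of 1.00. The counts were few, 8 to 53 reads per library, and the gene was the least abundant member. With a correction for exon length and G and C content, chosen after seeing the data, the log2 fold change was 0.72.

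A further 4 members were higher in Del#3 on each of the 3 days and had an unadjusted p under 0.05 with the block and not without it, and their lowest adjusted p by limma was 0.787. With the block, DESeq2 gave an adjusted p of 0.179 for *Eif3a* and 0.449 for *Eif5b*, and edgeR 0.722 and 0.703. *Eif3a* had normalized counts of 2227, 489 and 1026 in the EVX1-Δfs libraries and 5105, 1160.0 and 1117 in those of Del#3. The Del#3 library of day 1 was the highest by far, and the lines overlapped, since EVX1-Δfs replicate 1 exceeded Del#3 replicates 2 and 3. Its log2 fold change was 0.86 ± 0.63 (SE, n = 3 per line), with an SE of 0.24 and an unadjusted limma p of 0.00639 in the blocked fit. *Eif5b*, the GTPase of subunit joining, had normalized counts of 897, 209 and 336 in the EVX1-Δfs libraries and 1465, 397 and 424 in those of Del#3, and a log2 fold change of 0.66 ± 0.58 (SE, n = 3 per line) with a blocked SE of 0.19 and an unadjusted limma p of 0.00712. Within the pairs of days 1, 2 and 3, the log2 differences (Del#3 minus EVX1-Δfs) were 1.20, 1.25 and 0.12 for *Eif3a* and 0.71, 0.93 and 0.34 for *Eif5b*. In the fit without the block, leaving out Del#3 replicate 1 gave log2 fold changes of 0.13 and 0.045, with EVX1-Δfs replicate 1 then unmatched. These 2 genes also had the smallest p between days, as described below.

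*Eif2ak2* had normalized counts of 95.7, 15.2 and 39.0 in the EVX1-Δfs libraries and 136, 27.9 and 66.2 in those of Del#3, and *Eif5a2*, the minor eIF5A gene, had 177, 84.4 and 194 in the EVX1-Δfs libraries and 249, 159 and 225 in those of Del#3. Their log2 fold changes were 0.70 ± 0.69 (SE, n = 3 per line) and 0.54 ± 0.36 (SE, n = 3 per line), with unadjusted limma p of 0.0354 and 0.0393 in the blocked fit. Across days the lines overlapped in both genes. Within the pairs of days 1, 2 and 3, the log2 differences were 0.51, 0.83 and 0.75 for *Eif2ak2* and 0.49, 0.91 and 0.22 for *Eif5a2*. In the fit without the block, leaving out EVX1-Δfs replicate 2 gave 0.049 and 0.16, with Del#3 replicate 2 then unmatched. The correction for exon length and G and C content gave 0.12 for *Eif5a2*. In all, 7 of 55 members were higher in Del#3 in every pair (12.1% of all genes) and 2 were lower in every pair (11% of all genes), namely *Eif2b3* and *Eif4a1*. The 7 were these 5 genes, *Eif4e1b* and *Eif4g2*.

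The other members with small p between the lines were *Eif2c2* (log2 fold change 0.40 ± 0.33), *Eif2a*, which encodes an alternative carrier of initiator tRNA (0.37 ± 0.33), *Eif2s2* (0.42 ± 0.44), *Eif4a1* (-0.26 ± 0.26), *Eif3m* (-0.26 ± 0.28), *Eif2ak4* (-0.22 ± 0.25) and the eIF3 core gene *Eif3c* (-0.20 ± 0.26), all SE with n = 3 per line. None of these differences could be told from 0, with limma p from 0.253 to 0.443 before adjustment. *Eif2s2* had normalized counts of 2274, 683 and 2511 in the EVX1-Δfs libraries and 2554, 2249 and 1622 in those of Del#3. EVX1-Δfs replicate 2 was low by far, and without that library its log2 fold change was -0.18, and that of *Eif2a* was -0.02. The correction for exon length and G and C content gave 0.10 for *Eif2s2* and 0.017 for *Eif2a*. Leaving out 1 library at a time moved *Eif2c2* between 0.13 and 0.66, *Eif4a1* between -0.42 and -0.14, *Eif3m* between -0.57 and -0.096 and *Eif3c* between -0.40 and -0.0074. *Eif2ak4* moved between -0.34 and 0.0015 and so changed sign.

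By complex, the 12 eIF3 genes ran from -0.26 (*Eif3m*) to 0.86 (*Eif3a*), with 6 above 0 and 6 below and a median of -0.01. The 11 genes of eIF4F and its cofactors ran from -0.26 (*Eif4a1*) to 0.31 (*Eif4g3*), with a median of 0.01. The 5 eIF2B genes ran from -0.17 (*Eif2b1*) to 0.05 (*Eif2b4*). The 4 eIF4E inhibitors ran from -0.14 (*Eif4ebp1*) to 0.34 (*Eif4ebp3*). *Eif6*, which keeps the large subunit from joining too early, was at -0.05 ± 0.31, and *Eif4a3*, the helicase of the exon junction complex, at 0.13 ± 0.23.

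More members were called between days than between lines. A limma F test of the replicate terms, with the line in the model, called 6 of 55 members at an adjusted p under 0.05 (4.24% of all genes tested), and 20 of 55 had an unadjusted p under 0.05 (27.7% of all genes). The 6 were *Eif5b* (adjusted p = 0.0225), *Eif3a* (0.0238), *Eif2ak2* (0.0271), *Eif5* (0.039), *Eif1a* (0.0477) and *Eif4a2* (0.0498). In NCBIM37 the genes lie at chr1:38054855-38112424 (*Eif5b*), chr19:60837019-60866596 (*Eif3a*), chr17:79251904-79281913 (*Eif2ak2*), chr12:112776312-112794270 (*Eif5*) and chr16:23107517-23114209 (*Eif4a2*), and *Eif1a* is on chromosome 18. All 6 were highest on the day of replicate 1, and day 2 had the lowest mean of the 3 days for each. The count moved with the scaling, the test and the libraries. With edgeR's TMM scaling factors (2.59% of all genes called) or RPM (2.46%) in place of the deposited scaling, limma called 3 members, *Eif5b*, *Eif3a* and *Eif2ak2*, while *Eif5* (adjusted p 0.0517 and 0.0541), *Eif1a* (0.0572 and 0.0551) and *Eif4a2* (0.0672 and 0.0748) did not pass. On the recovered reads, edgeR's quasi-likelihood test called 4 members (3.58% of all genes) and DESeq2's likelihood ratio test 13 (10.1% of all genes). With the deposited scaling, limma called 2 members without EVX1-Δfs replicate 1 (1.5% of all genes), 18 without EVX1-Δfs replicate 2 (17.1%) and 16 without EVX1-Δfs replicate 3 (19%). It called 6 without Del#3 replicate 1 (1.64% of all genes), 18 without Del#3 replicate 2 (11.6%) and 24 without Del#3 replicate 3 (25.2%), so the share over all genes moved as well.

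As ratios of geometric means, the highest day exceeded the lowest 4.47-fold for *Eif3a*, 3.97-fold for *Eif5b* and 5.32-fold for *Eif2ak2*, whose values are given above. *Eif1a*, one of the eIF1A genes, had normalized counts of 840.2, 150.0 and 408 in the EVX1-Δfs libraries and 582, 283 and 447 in those of Del#3, a 3.38-fold difference between day means. Both libraries of day 1 were above the other 4. *Eif4a2*, the minor helicase gene, had 1943, 864 and 747 in the EVX1-Δfs libraries and 1728, 518 and 1035 in those of Del#3, a 2.74-fold difference. *Eif5*, the GTPase activator of eIF2, had 1079.7, 387 and 375 in the EVX1-Δfs libraries and 959.6, 389 and 583 in those of Del#3, a 2.62-fold difference. In both, the libraries of day 1 were the 2 highest.

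Other members had their lowest values on day 1. Both libraries of that day were above the other 4 for 12 of 55 members (22.2% of all genes tested) and below the other 4 for 14 (22.7%), shares near those of all genes. The 14 were *Eif1ax*, *Eif1b*, *Eif2b1*, *Eif2b4*, *Eif3b*, *Eif3c*, *Eif3g*, *Eif3i*, *Eif3k*, *Eif4e1b*, *Eif4e3*, *Eif4h*, *Eif4ebp1* and *Eif6*. limma called none of them, whereas DESeq2's likelihood ratio test called *Eif2b1*, *Eif3i* and *Eif4h*. *Eif3i*, a WD40 subunit of eIF3, had normalized counts of 5342, 7405 and 9919.9 in the EVX1-Δfs libraries and 3790.4, 9741 and 6796 in those of Del#3 (adjusted p between days 0.112 by limma). *Eif4h*, a cofactor of the helicase, had 6418, 10209 and 10485 in the EVX1-Δfs libraries and 5514, 12614 and 9314 in those of Del#3 (adjusted p 0.0907).

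**Figure D4:**
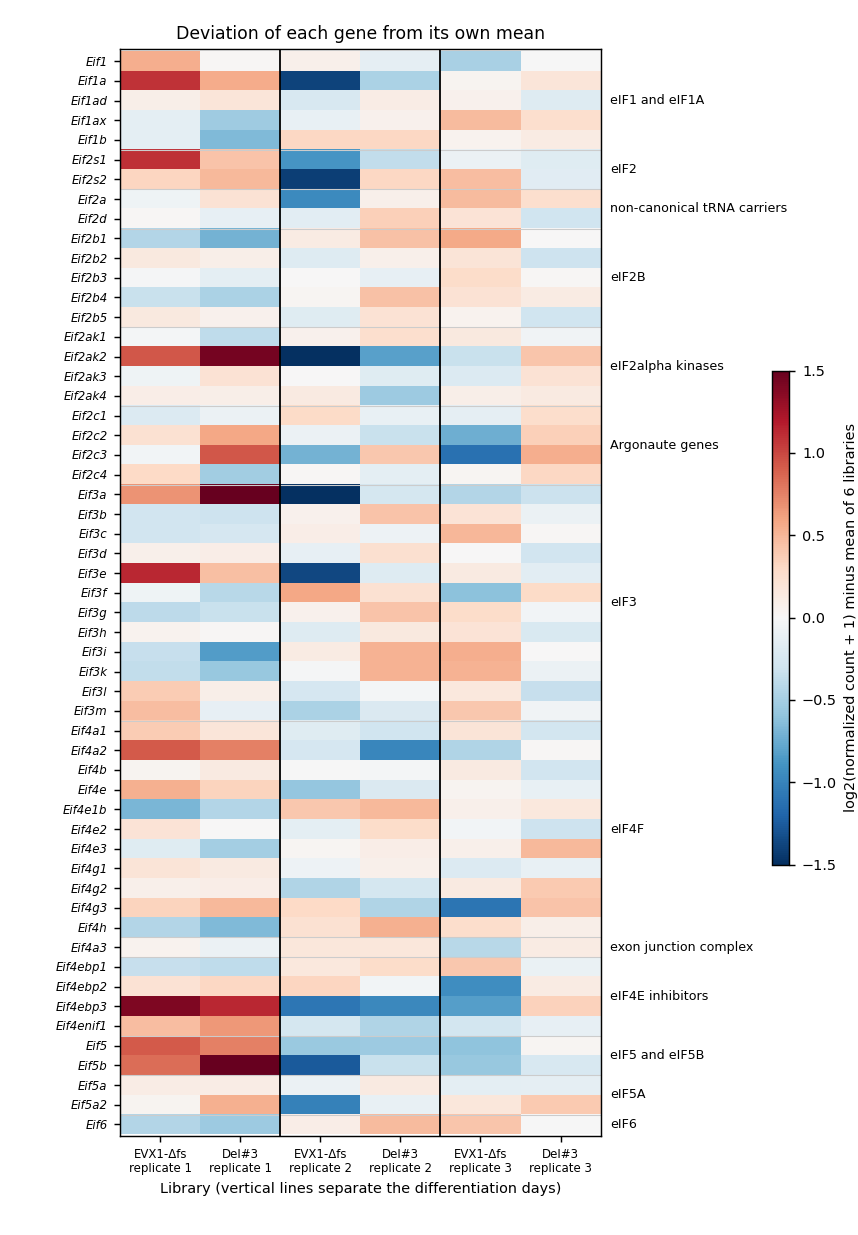
Deviation of each gene in each library from its own mean over the 6 libraries, on the log2(normalized count + 1) scale, with the libraries of a day side by side. Colours saturate at the ends of the scale. Red cells of day 1 and blue cells of day 2 coincide in *Eif1a*, *Eif2s1*, *Eif2ak2*, *Eif3a*, *Eif3e*, *Eif4a2*, *Eif4ebp3*, *Eif5* and *Eif5b*.

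The 34 members above their own mean on day 1 had a median GC3 of 49.1%, and the 21 below it one of 62.2%, where GC3 is the share of codons with G or C at position 3. To show such sequences, 60 coding bases are given for the called members and for as many members at the other end of day 1, taken from NCBIM37 (mm9) at the place in 1 exon where the G and C content and GC3 came closest to those of the whole coding sequence. Capitals mark G or C at position 3 of a codon. The called genes follow, without *Eif1a*, for which no sequence is shown. The stretches lie at chr19:60852577-60852636 (minus strand) for *Eif3a*, chr1:38078525-38078584 (plus strand) for *Eif5b*, chr17:79277499-79277558 (minus strand) for *Eif2ak2*, chr16:23111896-23111955 (plus strand) for *Eif4a2* and chr12:112778349-112778408 (plus strand) for *Eif5*, all in coding exons.
Eif3a: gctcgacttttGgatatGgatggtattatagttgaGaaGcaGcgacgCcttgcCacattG
Eif5b: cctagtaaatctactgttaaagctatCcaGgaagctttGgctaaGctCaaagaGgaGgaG
Eif2ak2: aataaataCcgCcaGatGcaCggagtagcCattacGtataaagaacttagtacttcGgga
Eif4a2: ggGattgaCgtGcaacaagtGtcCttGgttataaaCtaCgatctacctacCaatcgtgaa
Eif5: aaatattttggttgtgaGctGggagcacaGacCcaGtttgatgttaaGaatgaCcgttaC

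The 5 members with the lowest day 1 values follow. Their stretches lie at chr4:129269318-129269377 (minus strand) for *Eif3i*, chr5:125021812-125021871 (minus strand) for *Eif2b1*, chr13:54887998-54888057 (plus strand) for *Eif4e1b*, chr5:135097823-135097882 (minus strand) for *Eif4h* and chr2:155648946-155649005 (minus strand) for *Eif6*, all in coding exons.
Eif3i: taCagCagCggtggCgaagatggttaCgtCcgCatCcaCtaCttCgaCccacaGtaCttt
Eif2b1: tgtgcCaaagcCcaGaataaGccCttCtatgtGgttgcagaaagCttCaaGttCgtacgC
Eif4e1b: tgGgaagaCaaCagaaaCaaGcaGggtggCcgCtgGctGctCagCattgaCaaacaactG
Eif4h: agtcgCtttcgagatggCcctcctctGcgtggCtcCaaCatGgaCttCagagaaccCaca
Eif6: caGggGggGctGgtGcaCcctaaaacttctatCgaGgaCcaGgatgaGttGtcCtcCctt

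In these stretches, 41 of 100 codons had G or C at position 3 in the called genes and 64 of 100 in the others. The first set was picked by the test between days and not by day 1 value, which leaves out *Eif4ebp3* (1.27 on day 1, GC3 67.6%). The stretches were chosen to match the whole coding sequence, so their counts add nothing to its values. Over whole coding sequences GC3 was 39.3% in *Eif3a*, 42.1% in *Eif5b*, 41.5% in *Eif2ak2*, 44.3% in *Eif4a2* and 40% in *Eif5*. It was 69% in *Eif3i*, 59.2% in *Eif2b1*, 68.2% in *Eif4e1b*, 51.4% in *Eif4h* and 71.1% in *Eif6*. The median over the 55 members was 59.1%.

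Of the 19 members with a GC3 under 50%, 18 were above their own mean on day 1 and 19 were below it on day 2. Of the 36 members at 50% or more, 20 were below their own mean on day 1 and 23 above it on day 2. With TMM factors or RPM in place of the deposited scaling, the counts of 18 and 19 were the same, 19 and 18 members took the place of the 20, and 23 and 20 that of the 23. Across the 55 members, the correlation of the day's mean deviation with GC3 was -0.55 on day 1, 0.66 on day 2 and 0.05 on day 3. In single libraries the correlation with the G and C content of the exons was -0.49, 0.65 and 0.02 in the libraries of EVX1-Δfs and -0.42, 0.45 and -0.24 in those of Del#3. Over all 12235 tested genes with an annotated sequence it was -0.33, 0.54, -0.15, -0.34, 0.33 and -0.04 in the same order. The sign over all genes was that over the members in each library except EVX1-Δfs replicate 3, where the members were near 0. With log2 exon length, the correlation over all these genes was 0.16, -0.17 and -0.31 in EVX1-Δfs and 0.40, -0.25 and 0.10 in Del#3. Over the members it was 0.06, -0.14 and -0.25 in EVX1-Δfs and 0.29, -0.22 and 0.30 in Del#3. Genes of a library share its depth and preparation and are not independent replicates, and these correlations are descriptions across genes.

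Exceptions stood out on both sides. *Eif1ax*, the X-linked eIF1A gene, has a GC3 of 38.6%, yet it was at -0.34 log2 units from its mean on day 1, while *Eif1a*, with 38.6%, was at 0.82. *Eif4ebp3*, with 67.6%, had normalized counts of 70.0, 11.7 and 14.2 in the EVX1-Δfs libraries and 58.2, 12.8 and 33.1 in those of Del#3 and was at 1.27 on day 1. Of its exon bases, 67.3% overlap *Ankhd1* on the same strand, and reads that fit both genes cannot be told apart.

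**Figure D5:**
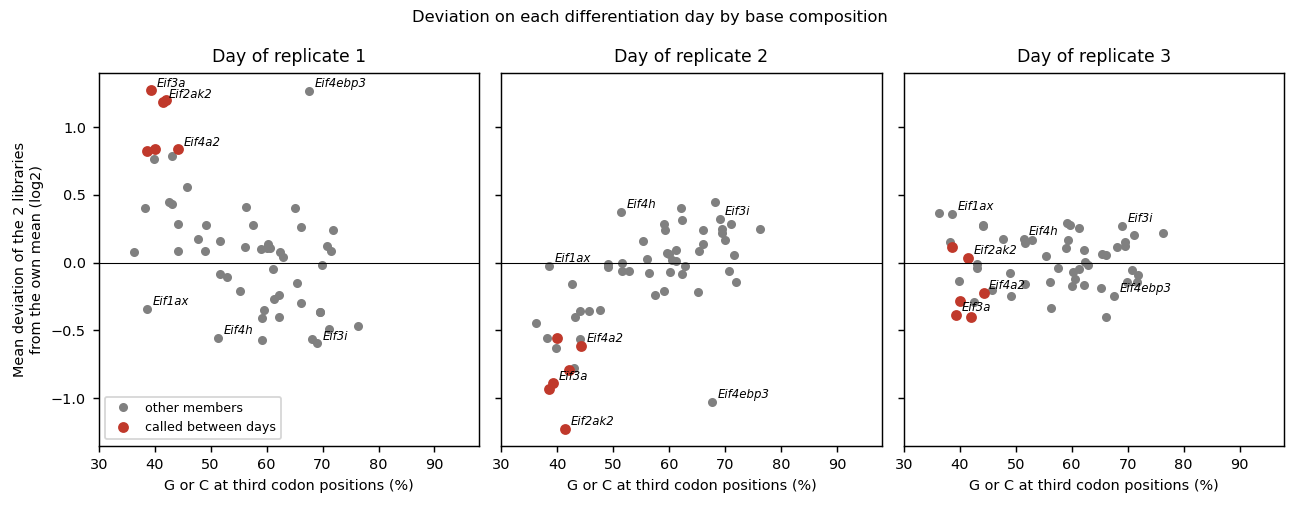
Mean deviation of the 2 libraries of a day from each gene's own mean (log2) against GC3 (%), for the days of replicates 1, 2 and 3. Red points are the 6 members called between days. The points slope down on day 1 (r = -0.55), up on day 2 (r = 0.66) and neither way on day 3 (r = 0.05).

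When each library was corrected for exon length and G and C content, a step chosen after seeing the data, limma called 4 of 55 members between days (2.31% of the 12235 genes tested), namely *Eif3a* (adjusted p = 0.0358), *Eif5b* (0.0308), *Eif4ebp3* (0.049998) and *Eif1ax* (0.0282). *Eif2ak2* (0.0517), *Eif1a* (0.117), *Eif5* (0.147) and *Eif4a2* (0.381) no longer passed. What part base composition or exon length has in the differences between days was not tested further.

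For 5 members the whole coding sequence has a copy of at least 98% identity elsewhere in NCBIM37, namely *Eif1*, *Eif2s2*, *Eif3m*, *Eif4a1* and *Eif4e*, and 34.6% of *Eif4a2* and 27.5% of *Eif5a* are also copied. Their counts are uncertain as far as reads were placed on such copies.

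Lists of 49 other genes covered elongation, termination and recycling, poly(A) binding, scanning helicases, TOR and MNK signalling, the integrated stress response, hypusine enzymes and mitochondrial initiation. Between the lines limma called 0 of 49 without the block, with 0 at an unadjusted p under 0.05, and 0 of 49 with it. With the block 5 of 49 had an unadjusted p under 0.05. These were *Ddx3x* and *Rps6kb1*, higher in Del#3 (3.64% of all genes), and *Mcts2*, *Rheb* and *Asns*, lower in it (0.985% of all genes). edgeR called 0 of 49 without and 0 with the block, and DESeq2 0 without and 0 with it. The log2 fold changes ran from -0.53 ± 0.32 for *Mcts2*, which acts in ribosome recycling, to 0.69 ± 0.41 for *Abce1*, the ATPase that splits terminated ribosomes. The 11 genes of the integrated stress response, which eIF2 alpha kinases switch on, ran from -0.40 (*Asns*) to 0.22 (*Impact*), and 0 of 11 were called. Between days, limma called 2 of 49, beside 4.24% of all genes. *Paip1*, a poly(A)-binding protein partner that contacts eIF3 and eIF4A, had normalized counts of 377, 103 and 102 in the EVX1-Δfs libraries and 383, 79.0 and 197 in those of Del#3 (adjusted p = 0.035). *Rps6kb1*, the S6 kinase downstream of TOR, had 324, 96.1 and 198 in the EVX1-Δfs libraries and 432, 182 and 231 in those of Del#3 (adjusted p = 0.0427). Both had their highest day mean on day 1 and their lowest on day 2, as had the called members.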

How the data were processed

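mRNA-seq libraries of day 4 EBs were analysed, 3 of EVX1-Δfs and 3 of Del#3. Per the study's methods, Ion Proton reads were aligned by the authors to mm9, by TopHat2 followed by TMAP. HTSeq and DESeq2 followed. Versions and the gene annotation are not given in the sources used here. The signal values deposited by the authors are counts divided by a size factor per library. Dividing by the smallest step gave whole reads for 100% of values in each library (tolerance 0.1 of a step), and the size factors were 1.52, 0.853 and 0.846 for EVX1-Δfs and 1.25, 0.861 and 0.936 for Del#3 replicates 1 to 3.

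limma (3.58.1, R 4.3.3) with a trend was fitted to log2(normalized count + 1). The filter was filterByExpr (minimum count 10), which 12891 genes passed. p-values were adjusted over all of them (Benjamini-Hochberg, called under 0.05), and the model had no covariate. A fold change is on the log2(normalized count + 1) scale and understates the change of low genes. Days were tested with limma's F test. Count tests on the recovered reads used edgeR (4.0.16) and DESeq2 (1.42.0). Scripts were tested on simulated data. Exon lengths, base composition and coding sequences came from GENCODE vM1 and NCBIM37, with 14393 of 15266 listed genes matched by symbol. Copies were sought with BLAST+ (2.17.0) at 98% identity or more over at least 100 bases.

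The series' design text describes the replicates as side-by-side differentiations of both lines, each on another day, and libraries with the same replicate number were therefore treated as pairs. The titles themselves name no day. Deviations of same-numbered libraries from their line's means correlated at 0.74, 0.32 and -0.05 for replicates 1 to 3 across the genes tested. On log2 values, EVX1-Δfs replicate 3 correlated more closely with Del#3 replicate 2 (r = 0.975) than with Del#3 replicate 3 (r = 0.967). The pairing of replicate 3 thus rests on the design text and not on the values. Members named were the 12 with the smallest p between lines, the 6 with the smallest p between days, the highest and lowest of each complex, and the paralogs compared. Any other was chosen after its values were seen. The members and lists were chosen with earlier results of these data known. The 3 libraries per line limit precision, as does counting error for members of few reads.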

Additional observations from a re-analysis of the deposited data

How the results depend on the processing

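Between the lines, no member was called under any alternative: TMM or RPM, pseudocounts of 0.1 and 5, no low-count filter or one asking 10 reads of each library, the replicate block in limma, edgeR or DESeq2, edgeR or DESeq2 without it, leaving out each library, an adjusted p under 0.1, and the correction for exon length and G and C content with and without the replicate block, which was chosen after seeing the data. *Eif2c3* was not tested under the filter of 10 reads in each library, and *Eif2ak2*, *Eif2c3*, *Eif2c4* and *Eif4ebp3* had no adjusted p in DESeq2 with the replicate block. The replicate block left the count at 0 in limma, edgeR and DESeq2. The median log2 fold change of the members ranged from -0.07 to 0.06 without 1 library at a time.

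The count of members called between days was 6 (4.24% of all genes). With TMM factors it was 3 (2.59%), with RPM 3 (2.46%) and with DESeq2's likelihood ratio test 13 (10.1%). That test gave *Eif2c3* no adjusted p. The share over all genes was not counted at an adjusted p under 0.01, where the member count was 0. It ranged from 2 to 24 without 1 library at a time, where the day of that library has 1 sample that is assumed to vary like the others, and the cause was not tested. *Eif3a* and *Eif5b* passed in each of the 15 alternatives that kept the threshold of 0.05, *Eif2ak2* in 13, *Eif1a* and *Eif5* in 10 each and *Eif4a2* in 8.

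The difference in summed RPM was -17.8 (Del#3 minus EVX1-Δfs), -169 with TMM effective library sizes, 320.4 without *Eif4a1*, the member with the most reads, and -564 to 437 without 1 library at a time, and within same-numbered pairs (replicate block) it had an exact permutation p of 1.00. Without 1 library at a time the log2 fold change ranged from -0.021 to 0.69 for *Eif2a*, -0.18 to 0.75 for *Eif2s2* and -0.34 to 0.0015 for *Eif2ak4*, and, without a change of sign, from 0.13 to 1.41 for *Eif3a*, 0.045 to 1.24 for *Eif5b*, 0.049 to 1.34 for *Eif2ak2*, 0.16 to 0.76 for *Eif5a2* and 0.998 to 1.54 for *Eif2c3*. The length and G and C correction gave 0.12 for *Eif5a2*, 0.72 for *Eif2c3*, 0.10 for *Eif2s2* and 0.017 for *Eif2a*. The share differences, in percentage points, ranged from -1.14 to 0.314 for *Eif4a1*, -3.24 to 0.508 for *Eif4g1*, -2.45 to 5.06 for *Eif4g2*, -3.49 to 3.72 for *Eif4e*, -3.34 to 0.814 for *Eif4ebp1* and -2.91 to 5.32 for *Eif1*, and, without a change of sign, from -0.215 to -0.0491 for *Eif5a*. With *Eif4e1b* added, the difference in the *Eif4e* share was -0.309 in place of 0.03 points, and with *Eif4ebp3* added that of *Eif4ebp1* was -1.59 in place of -1.51. With 3 libraries per line, the median SE of a member's log2 fold change was 0.30, or 0.20 with the replicate block.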
